A study of Mus musculus with 4 samples.

Results

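The MYC and MAX network is a set of basic helix-loop-helix leucine zipper transcription factors, and 10 of its genes were followed here: Myc, Mycn, Mycl, Max, Mnt, Mga, Mxd1, Mxd3, Mxd4 and Mxi1. The genes were taken by name, and all 10 were found among the 55401 genes of the count table. Polyadenylated RNA had been sequenced from R1 mouse embryonic stem cells in 2 groups of 2 libraries, a control group labelled WT and a group labelled Usp28 KO (knockout). Both groups grew on 0.2% gelatin in N2B27 medium with 1 μM PD0325901, an inhibitor of the kinase MEK, 3 μM CHIR99021, an inhibitor of the kinase GSK3, and 10 ng/ml leukaemia inhibitory factor (LIF). The labels do not say how the knockout was made, how many clones it comprised or whether replicates were separate cultures, so the tests see only library-to-library spread, which may be technical. Paired values below are given for replicate 1 and then replicate 2 of a group.

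MAX is the shared partner of the network. MYC, MYCN and MYCL bind the DNA element called the E-box as dimers with MAX and activate genes of growth and ribosome production, while MXD1, MXD3, MXD4, MXI1 and MNT dimerise with MAX at the same element and recruit the SIN3 corepressor. MGA, a large protein with both a T-box and a helix-loop-helix domain, pairs with MAX in the Polycomb complex PRC1.6, which keeps germline genes silent in embryonic stem cells. USP28 is a deubiquitinase that opposes the ubiquitin ligase FBXW7, of which MYC and MYCN proteins are substrates. RNA counts do not measure those proteins.

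The libraries held 16595196 to 19533608 counts. The targeted gene, Usp28, had 3690 and 3120 counts in the control pair and 3392 and 3319 counts in the pair labelled Usp28 KO. A gene-level count does not check a knockout made by a small edit, so the groups are compared by their labels. The 8 markers of pluripotent stem cells were all detected, with a summed level of 5011 to 5337 CPM per library (CPM, counts per 1e6 of the scaled library size); Pou5f1, Sox2 and Nanog differed between the groups by -0.020 ± 0.18, 0.050 ± 0.17 and -0.11 ± 0.18 (log2 fold change ± SE). The 3 of these markers with the smallest p were Tdgf1, Dppa5a and Zfp42, at 0.40 ± 0.19, 0.48 ± 0.23 and -0.33 ± 0.17. Of the 8, 0 passed by edgeR, by DESeq2 or at an unadjusted p under 0.05. These rules called 0%, 0.969% and 11.2% of the genes to which they were applied. The 7 fibroblast feeder markers summed to 0.563 to 1.07 CPM, with Dcn, Lum and Postn at 0 counts in all 4 libraries. Summed levels per library were 8.32 to 12.5 CPM for the 6 primitive endoderm markers, 148 to 188 CPM for the 6 trophectoderm markers and 75.3 to 109.6 CPM for the 6 neural and mesoderm markers. Most of the trophectoderm sum was a single gene, Tfap2c, at 123 to 160 CPM. The largest part of the neural and mesoderm sum was Tubb3, at 33.6 to 68.9 CPM. At an unadjusted p under 0.05, 1 of 4 tested primitive endoderm markers was lower, Sox7 (-1.43 ± 0.66), where 4.34% of tested genes were. Sox7 was scarce, at 0.768 and 0.694 CPM in control and 0.161 and 0.373 CPM in Usp28 KO libraries. Of the tested trophectoderm and neural and mesoderm markers, 0 of 3 and 0 of 5 were called in this way.

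The E-box that the network reads is CACGTG, a palindrome, so both strands are searched at once. RefSeq promoter windows on build GRCm38.p6, each 300 bases from 250 before to 50 after a transcription start, were on hand for 9 of the 10 members, all but Myc. Of these, 3 held the element, against 7.15% of the 32851 windows of all genes and 11.7% of the tested genes with a window. The element lies across the start site in Max and upstream of it in Mnt and Mxd4. The 3 sites are shown with the E-box in capitals because they are the places where the network's own element sits in its own genes. They are followed by a site from Cdk4, a cell-cycle kinase gene and classical MYC target, and by sites from germline genes repressed by PRC1.6. The germline examples, Stk31, Taf7l and Tdrd1, all have estimates above 0 (log2 fold change 0.58, 0.80 and 0.92). Hormad1, another listed germline gene with the element, was at -0.62. The germline list is described below.
Max, chr12:76962234-76962263, minus strand: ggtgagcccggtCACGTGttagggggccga
Mnt, chr11:74830777-74830830, plus strand: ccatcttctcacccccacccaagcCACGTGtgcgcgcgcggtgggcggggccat
Mxd4, chr5:34187900-34187953, minus strand: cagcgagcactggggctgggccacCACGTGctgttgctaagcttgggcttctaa
Cdk4, chr10:127063339-127063392, plus strand: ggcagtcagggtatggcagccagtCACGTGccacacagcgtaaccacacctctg
Stk31, chr6:49395460-49395513, plus strand: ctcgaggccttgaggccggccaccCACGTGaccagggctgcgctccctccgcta
Taf7l, chrX:134476510-134476563, minus strand: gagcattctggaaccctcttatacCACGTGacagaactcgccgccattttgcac
Tdrd1, chr19:56826174-56826208, plus strand: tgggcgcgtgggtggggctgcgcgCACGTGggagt
A match is a description of the letters and not evidence of binding.

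Mycn was the most abundant of the 10 transcripts and Myc was 7th in control libraries. Levels between genes were compared as TPM, which divides counts by exon length and scales each library to 1e6. Mycn stood at 205 ± 20.3 TPM in control and 203 ± 10.4 TPM in Usp28 KO libraries (SD, n = 2), above 95.3% of the tested genes in control. Max followed at 115 ± 23.2 and 107 ± 21.1 TPM, then Mga at 81.1 ± 6.62 and 71.3 ± 5.66 TPM and Mnt at 67.7 ± 14.04 and 70.2 ± 26.8 TPM. The ranges of Mga and Mnt over the 4 libraries overlapped, so their order is not resolved, whereas Mycn was above Max, and Max above both, in every library range. Mxi1 and Mxd3 came next at 16.7 ± 0.206 and 13.97 ± 1.71 TPM in control, Myc at 11.9 ± 0.608 TPM and Mycl at 7.92 ± 0.969 TPM. Mxd1 and Mxd4 were lowest, at 3.79 ± 0.447 and 1.30 ± 0.635 TPM in control. The order of the means was the same in Usp28 KO libraries except that Myc, at 3.84 ± 1.66 TPM, stood below Mycl, at 7.86 ± 0.367 TPM. There Myc, at 2.66 and 5.01 TPM, overlapped Mxd1, at 3.82 and 3.03 TPM, so the order of Myc and Mxd1 is not resolved.

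**Figure D1:**
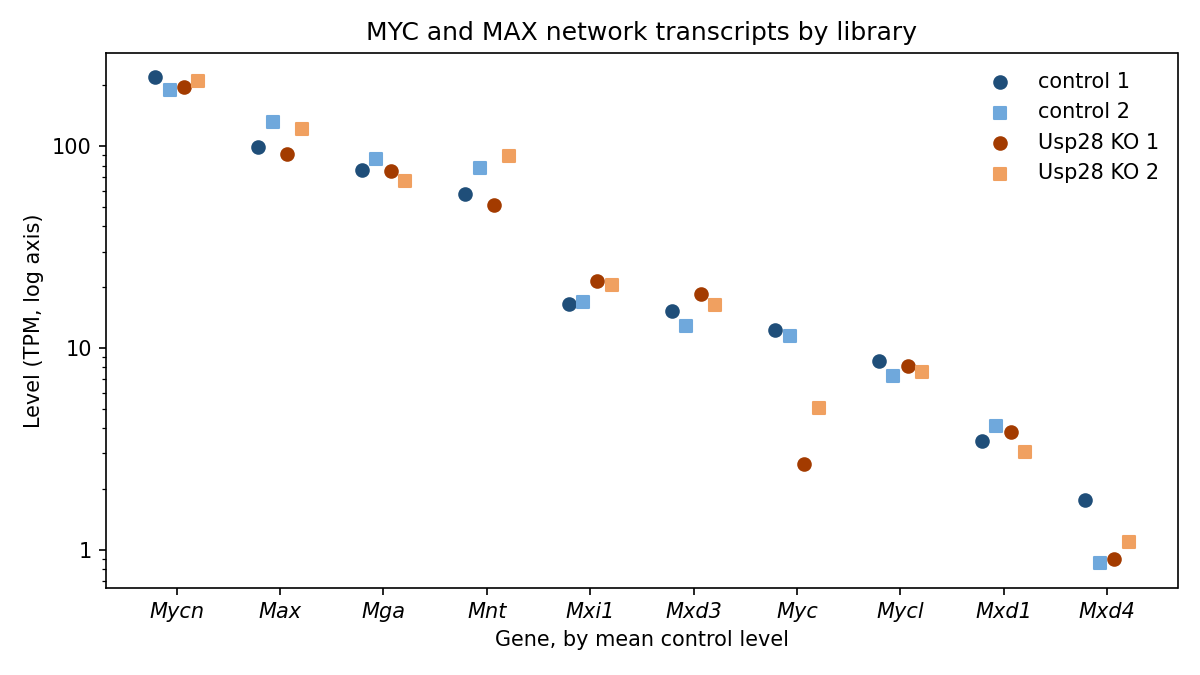
Level of each network transcript (TPM, log axis) in the 4 libraries, with genes ordered by their mean in control. Mycn lies near 200 TPM in every library, and Myc is the one gene whose Usp28 KO points, at 2.66 and 5.01 TPM, sit far below its control points, at 12.3 and 11.4 TPM.

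Myc (ENSMUSG00000022346.16, mm10 chromosome 15, 61985391 to 61990374) had 193 and 154 counts in the control pair and 39 and 75 counts in the Usp28 KO pair. Scaled for library size and composition this was 9.88 and 9.71 CPM in control and 2.09 and 4.001 CPM in Usp28 KO libraries. Both Usp28 KO libraries were below both control libraries. The difference was 3.21-fold (log2 fold change -1.68 ± 0.32, SE; 95% interval -2.38 to -0.99), with an adjusted p of 0.0715 by edgeR's quasi-likelihood test, which misses the threshold of 0.05, and 0.00453 by DESeq2, which passes it. After GC correction the log2 fold change was -1.79 (edgeR, adjusted p = 0.280). By edgeR p, Myc ranked 37th of 15341 tested genes. The Usp28 KO replicates also differed from each other by more than counting error: their 95% Poisson intervals were 1.48 to 2.85 and 3.15 to 5.01 CPM. The size of the difference therefore depends on the library, at -1.29 without Usp28 KO replicate 1 and -2.23 without Usp28 KO replicate 2. In such a fit the lone library of a group is assumed to vary like the other group, so these fits give the size of the difference and no further support for it. In bulk RNA, fewer cells with Myc transcript and less transcript per cell cannot be told apart.

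No member passed the edgeR test (0 of 10; 0% of all 15341 tested genes passed). At an unadjusted p under 0.05, 1 of 10 was called, Myc, which was lower; 4.34% of tested genes were called lower in this way and 11.2% in either direction. DESeq2 called 1 of 10, again Myc, where 0.365% of the genes to which it gave an adjusted p were lower and 0.604% higher (0.969% in all). The limma-voom test called 0 of 10, as it did 0% of genes. All 10 passed the filter on low counts. Groups did not overlap for 4 of 10 members, Myc and Mga lower and Mxd3 and Mxi1 higher, which is near the 41.8% of tested genes for which this held. The median log2 fold change of the members was -0.13, with 8 below 0, beside -0.0040 for all tested genes.

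Mycn and Mycl, the other activating paralogs, had differences whose 95% intervals include 0. Mycn had 214 and 196 CPM in the control pair and 186 and 204 CPM in the Usp28 KO pair. The groups overlapped, and the log2 fold change of -0.071 had a 95% interval from -0.41 to 0.27 (edgeR, adjusted p = 0.918). That interval leaves room for a 1.33-fold decrease or a 1.21-fold increase. Mycl, the paralog first found amplified in lung cancer, had 10.3 and 9.14 CPM in control and 9.47 and 9.01 CPM in Usp28 KO libraries, which overlap (log2 fold change -0.073, 95% interval -0.58 to 0.44).

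**Figure D2:**
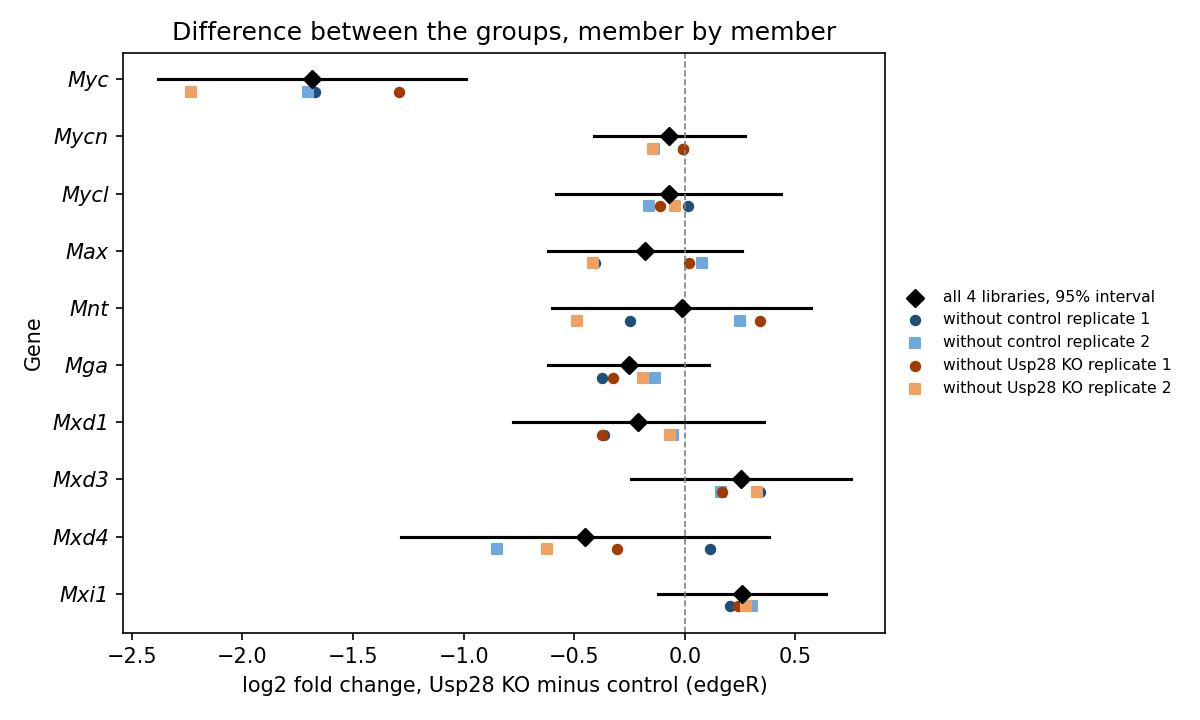
Log2 fold change of each member, Usp28 KO minus control; the diamond and line are the estimate and 95% interval from all 4 libraries, and the small points are the estimates with 1 library left out. Only the interval of Myc, -2.38 to -0.99, lies clear of 0; the left-out estimates of Mnt run from -0.49 to 0.34.

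Within each library, Mycn exceeded Myc by a wide margin that was larger in Usp28 KO libraries. The ratio of Mycn to Myc TPM was 17.8 and 16.7 in the control pair and 73.7 and 42.01 in the Usp28 KO pair. Library scaling cancels in this ratio. On the log2 scale it was 4.11 ± 0.0689 in control and 5.80 ± 0.573 in Usp28 KO libraries (SD, n = 2), a difference of 1.69; the exact two-sided permutation test gave p = 0.333, the smallest that 2 against 2 allows. Myc made up 5.12% and 5.46% of the summed MYC paralog TPM in control and 1.29% and 2.25% in Usp28 KO libraries. Mycn made up 91.3% and 91.1% in control and 94.8% and 94.3% in Usp28 KO libraries. The sum of the 3 paralogs was 239.97 and 209.1 TPM in control and 207 and 223 TPM in Usp28 KO libraries, which overlap (exact two-sided permutation p = 0.667). The large relative difference in Myc thus came with a mean difference of -9.57 TPM in a family total of 225 ± 21.8 TPM in control, less than the spread between the control libraries, and of the opposite sign, 5.87 TPM, without control replicate 1.

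**Figure D3:**
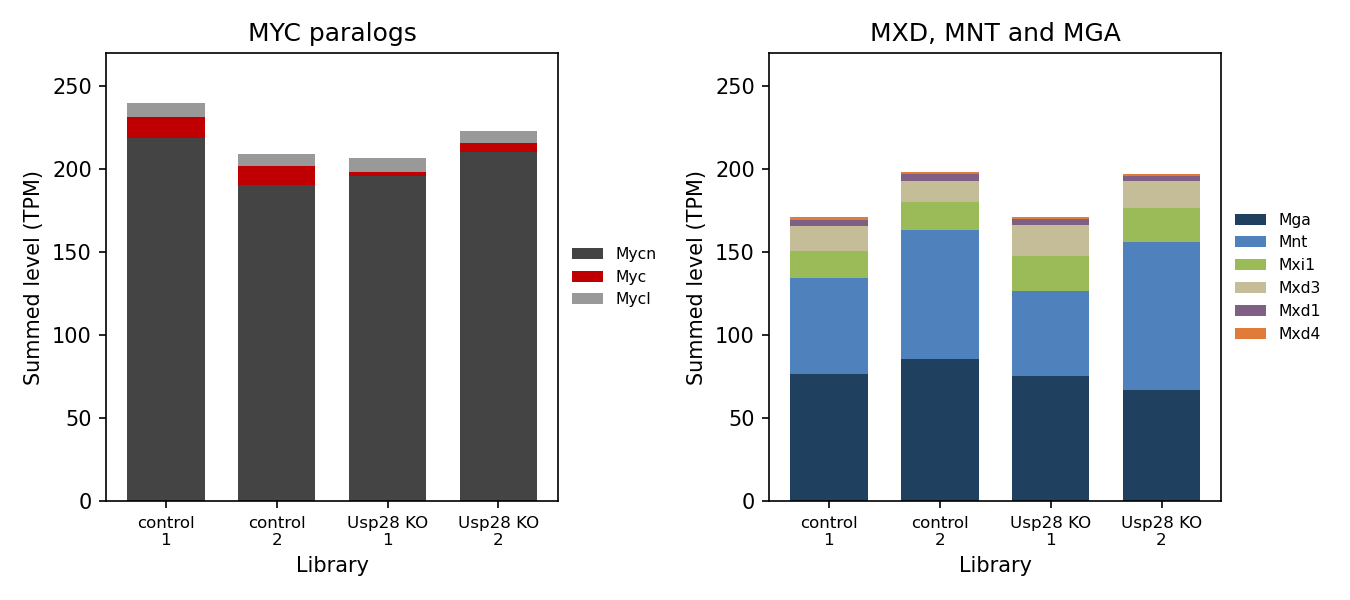
Stacked TPM of the 3 MYC paralogs (left) and of the 6 MAX partners MGA, MNT and the MXD proteins (right) in each library. Mycn fills 91.1% to 94.8% of each left-hand bar and the Myc segment narrows in Usp28 KO libraries, while the right-hand bars run from 171 to 198 TPM with Mga and Mnt as the main parts.

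Max, the obligate partner, varied more between replicates than between groups. It had 105 and 148 CPM in the control pair and 95.4 and 129 CPM in the Usp28 KO pair (log2 difference -0.18, 95% interval -0.62 to 0.26). Replicate 2 was the higher library in both groups, by 0.49 and 0.43 on the log2 scale. The summed TPM of all 9 measured partners was 4.15 and 3.09 times that of Max in control and 4.12 and 3.46 times in Usp28 KO libraries, which overlap.

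Mnt, the broadly expressed repressor, and Mga differed in how they varied. Mnt had 79.2 and 112 CPM in the control pair and 68.5 and 121 CPM in the Usp28 KO pair. Here too replicate 2 was higher in both groups, by 0.51 and 0.82 on the log2 scale, against a group difference of -0.015 ± 0.26. That sign is not stable: it was 0.045 with library totals and 0.043 with upper-quartile scaling, and -0.27 after correction for GC content. Mnt has the highest transcript GC content of the 10, at 59.5%. Across tested genes averaging at least 5 CPM the group difference had a rank correlation of 0.323 with GC content. For each library against the mean of the others, the rank correlation was 0.055 and -0.44 in the control pair. In the Usp28 KO pair it was 0.0032 and 0.45, so the trend lay mainly in replicate 2 of each group, with opposite signs. After the correction the value for the group difference was -0.0996, so a weak trend of the other sign remained. The part of the trend in Mnt was measured only by this correction. Mga had 347 and 412 CPM in control and 333 and 303 CPM in Usp28 KO libraries, so the groups did not overlap, but the log2 fold change of -0.25 ± 0.17 did not pass (edgeR, adjusted p = 0.625). Its transcript GC content, 42.2%, is the lowest of the 10, and its log2 fold change was -0.17 after GC correction.

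Among the MXD repressors, Mxi1 and Mxd3 were slightly higher in Usp28 KO libraries without passing the test. MXI1, also known as MXD2, is the most abundant of them at the RNA level, with 33.5 and 36.01 CPM in control and 42.2 and 41.02 CPM in Usp28 KO libraries. Both Usp28 KO values were above both control values, by 0.26 ± 0.18 on the log2 scale (edgeR, adjusted p = 0.631), and the difference was 0.21 to 0.30 with any library left out. Mxd3, which is known from cells in S phase, had 10.6 and 9.46 CPM in control and 12.7 and 11.3 CPM in the Usp28 KO pair (log2 difference 0.25 ± 0.23, and 0.084 after GC correction). Of its exon bases, 105 (4.43%) are shared with Prelid1 on the opposite strand, a gene with 2929 to 3705 counts per library; the strand setting of the counting is not given in the sources used here, so reads there cannot be assigned with certainty.

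Mxd1, a differentiation-linked repressor, and Mxd4 were near the bottom of the range. Mxd1 had 7.27 and 9.08 CPM in control and 7.81 and 6.29 CPM in Usp28 KO libraries, which overlap. Mxd4 had 86 and 36 counts in the control pair and 41 and 51 counts in the Usp28 KO pair. Its control libraries differed from each other beyond counting error, with 95% Poisson intervals of 3.52 to 5.44 and 1.59 to 3.14 CPM, and the log2 fold change of -0.45 ± 0.38 became 0.11 without control replicate 1. The 4 MXD transcripts together were at 36.99 and 34.6 TPM in control and 44.6 and 40.8 TPM in Usp28 KO libraries, without overlap (exact two-sided permutation p = 0.333, the smallest possible). With MNT and MGA included the sum was 171 and 198 TPM in control and 171 and 197 TPM in Usp28 KO libraries. The ratio of MYC paralogs to these 6 partners was 1.40 and 1.06 in control and 1.21 and 1.13 in Usp28 KO libraries, so it overlapped as well.

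The PRC1.6 subunits that work with MGA and MAX showed no member past the edgeR test in either direction (0 of 13). At an unadjusted p under 0.05 and by DESeq2 0 were called, where 11.2% and 0.969% of genes were. The median log2 fold change was -0.11. Those with the smallest p were Yaf2 (7.92 ± 1.39 to 11.1 ± 0.665 CPM), its paralog Rybp (166 ± 18.4 to 136 ± 26.6 CPM) and the deacetylase gene Hdac2 (185 ± 0.656 to 156 ± 18.8 CPM). Pcgf6 and L3mbtl2, which define the complex, had log2 fold changes of -0.11 each, and E2f6, its other DNA-binding subunit, 0.0035.

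Of the germline genes that PRC1.6 represses none passed the edgeR or DESeq2 test, and most estimates were above 0. Their median was less than the median difference between the control libraries. Of 20 listed genes 19 were tested; 0 passed by edgeR and 0 by DESeq2, and 3 were higher and 0 lower at an unadjusted p under 0.05, where 6.86% and 4.34% of tested genes were. The median log2 fold change was 0.42, with 16 of 19 above 0, beside -0.0040 for all tested genes. After GC correction it was 0.52, beside -0.035 for all tested genes. Groups did not overlap, with Usp28 KO higher, for 9 of 19, against 21.4% of tested genes. The 3 genes with the smallest p were Zcwpw1, a histone reader of meiotic recombination, with 13.3 and 19.99 CPM in control and 24.3 and 33.3 CPM in Usp28 KO libraries (0.80 ± 0.24); Syce1, of the synaptonemal complex, with 7.11 and 6.18 against 9.15 and 12.1 CPM (0.67 ± 0.26); and Tdrd1, of the piRNA pathway, with 1.69 and 1.01 against 3.16 and 2.03 CPM (0.92 ± 0.42).

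The control libraries of the germline list differed from each other as much as the groups did. Relative to each gene's mean over the libraries, the list's median log2 level was -0.41 and 0.065 in the control pair and 0.13 and 0.34 in the Usp28 KO pair. Control replicate 2 exceeded control replicate 1 by a median of 0.59, and Usp28 KO replicate 2 exceeded Usp28 KO replicate 1 by 0.20. With the replicate number as a block 6 of 19 passed, all higher, beside 965 higher of 15341 tested genes. The labels do not say that numbers mark a shared batch. Without control replicate 1 the list's median difference was 0.20, with 15 of 19 above 0, and without control replicate 2 it was 0.61, with 18 above 0. Most of these transcripts are scarce, with a median of 4.802 CPM. Of the 19 listed genes with a promoter window, 10 held CACGTG, the sites of Stk31, Taf7l and Tdrd1 printed above among them. Among all tested genes with a window 11.7% held it. So did 8 of 23 MYC targets and 2 of 3 MLX branch genes with a window.

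**Figure D4:**
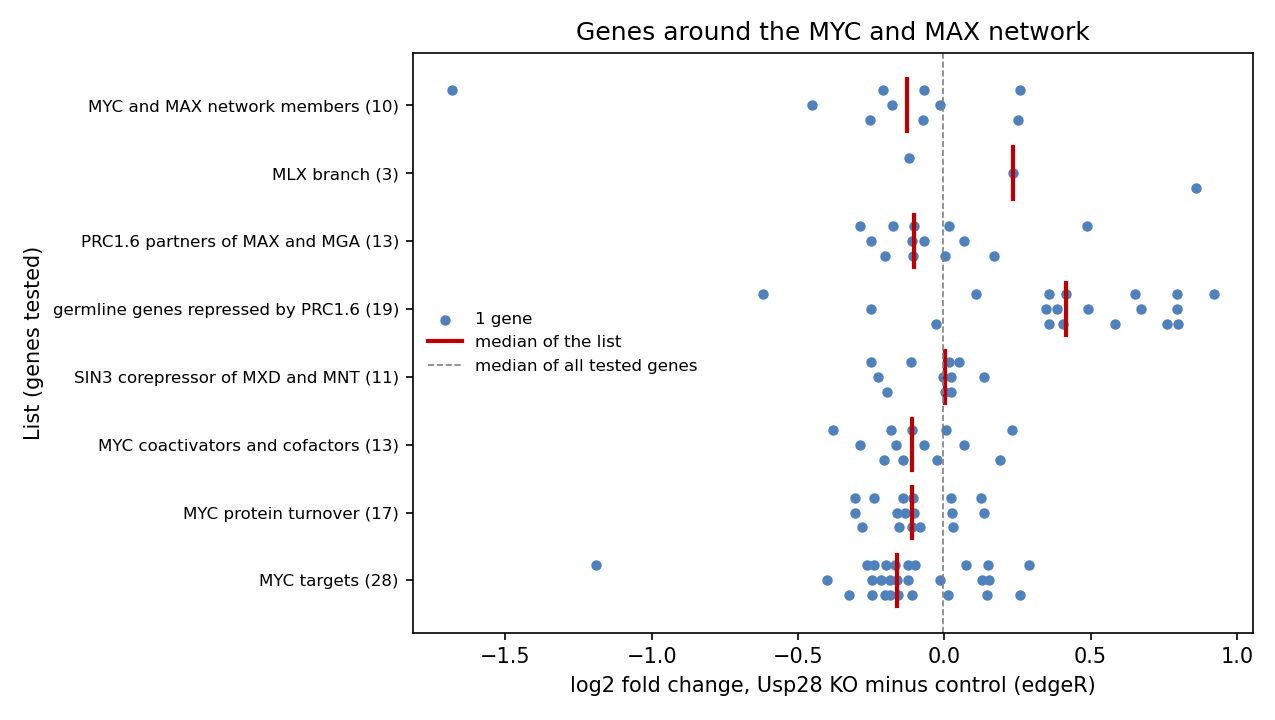
Log2 fold change (Usp28 KO minus control) of each tested gene in 8 lists around the network, with the list's median as a bar and the median of all tested genes as a dashed line. The germline list has 16 of its 19 genes to the right of 0 and a median of 0.42, while the other lists of over 3 genes have medians between -0.16 and 0.0017.

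MLX heads a parallel branch that senses glucose through MLXIP and MLXIPL. None of the 3 passed the edgeR test; Mlxipl, which encodes the factor ChREBP, had 4.71 and 8.01 CPM in control and 8.93 and 14.03 CPM in Usp28 KO libraries (0.86 ± 0.31, edgeR, adjusted p = 0.330) and was called at an unadjusted p under 0.05. Mlxip and Mlx differed by 0.23 ± 0.17 and -0.12 ± 0.18. Genes of the SIN3 corepressor, which share Hdac1 and Hdac2 with the PRC1.6 list, had a median of 0.0017. Of these, 0 of 11 passed by edgeR, DESeq2 or unadjusted. Hdac2, Arid4b and Arid4a had the smallest p, at -0.25, -0.23 and -0.20. Coactivators and cofactors of MYC, which share Wdr5 with the PRC1.6 list, had a median of -0.11. Here 0 of 13 passed by any of these rules. Over all genes the shares called were 0% by edgeR, 0.969% by DESeq2 and 11.2% unadjusted. The acetyltransferase genes Crebbp and Ep300 differed by -0.38 ± 0.20 and -0.29 ± 0.19, and Zbtb17, which encodes the MYC partner MIZ1, by 0.23 ± 0.18, or 0.020 after GC correction.

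Genes that control the turnover of MYC protein had a median of -0.11, with 12 of 17 below 0, beside -0.0040 for all tested genes. The list includes Usp28 itself, at -0.11 ± 0.15. Of the 17, 0 passed the edgeR test, the DESeq2 test or an unadjusted p under 0.05. These rules called 0%, 0.969% and 11.2% of the genes to which they were applied. Fbxw7, the receptor of the ligase that targets MYC, had 63.9 and 59.8 CPM in control and 51.6 and 48.5 CPM in Usp28 KO libraries, a difference of -0.30 ± 0.17. The libraries did not overlap, and the adjusted p was 0.536 (edgeR). Cip2a, an inhibitor of the phosphatase PP2A, and Aurka, a mitotic kinase that stabilises MYCN, differed by -0.30 ± 0.16 and -0.28 ± 0.16; Cip2a was at -0.086 after GC correction.

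Of 28 MYC target genes, 0 passed by edgeR and 0 by DESeq2, 1 was lower at an unadjusted p under 0.05, where 4.34% of tested genes were, and the median was -0.16 with 20 below 0, beside -0.0040 for all tested genes. Groups did not overlap for 13 with Usp28 KO lower, against 20.4% of tested genes, and for 3 with it higher, against 21.4%. The nucleolar gene Nop58 went from 355 ± 37.4 to 269 ± 18.3 CPM (-0.40 ± 0.17) and the nucleophosmin gene Npm1 from 2769 ± 55.9 to 2208 ± 20.3 CPM (-0.33 ± 0.18). Ccnd2, a D-type cyclin gene, was below 1.1 CPM throughout, with a difference of -1.19 ± 0.58. In all 4 fits with a library left out the list's median stayed between -0.15 and -0.12.

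Genes with the E-box in a promoter window differed little from those without. The 1243 tested genes with CACGTG had a median log2 fold change of -0.044, and 56.6% were below 0. The 9356 tested genes with a window but no CACGTG had a median of 0.0015, and 49.7% were below 0. With a library left out the medians ran from -0.059 to -0.027 with the element and from -0.0012 to 0.014 without it. After GC correction they were -0.070 and -0.029. At an unadjusted p under 0.05, 4.83% of the genes with the element were lower and 6.52% higher, beside 4.26% and 7.24% of those without.

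The 5 genes whose profile over the 4 libraries lay closest to that of Myc, by Euclidean distance between centred log2 CPM values among 13715 genes averaging at least 1 CPM, were Spry4, Lgals3, Apol6, Cemip and Tll1. Their distances were 0.195, 0.249, 0.271, 0.330 and 0.398 log2 units. Spry4, which encodes a Sprouty protein that restrains growth factor signalling, had 41.8 and 38.4 CPM in the control pair and 9.95 and 18.1 CPM in the Usp28 KO pair. Like Myc it was lowest in Usp28 KO replicate 1, a likeness that follows from the choice by profile. A match over 4 libraries is a description of these libraries.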

How the data were processed

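The deposited table gives raw read counts per gene for the 4 libraries, with gene positions and exon lengths. HISAT2, featureCounts, DESeq2 and mm10 are named in the submitters' processing notes; their versions, the strand setting and the annotation release were not given in the sources used here. GENCODE M21 supplied the symbols and the GC content of each gene's longest transcript; 55141 identifiers matched once the version suffix was dropped, and 260 did not. Counts were tested in R 4.3.3 with edgeR 4.0.16: filterByExpr (minimum count 10, total 15) kept 15341 genes, TMM scaling and a robust quasi-likelihood fit followed, with Benjamini-Hochberg adjustment over all tested genes. Group values are means ± SD, log2 fold changes, ± SE, are for Usp28 KO over control, and CPM values use TMM-scaled library sizes. TPM was computed from the counts and the deposited exon lengths over all 55401 genes. Poisson intervals cover counting error only.

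Alternatives were DESeq2 1.42.0, limma-voom (limma 3.58.1), 3 other scalings, 2 other filters, a replicate block, a GC correction (spline with 5 degrees of freedom per library), both together, and each library left out. The members, lists and tests were chosen with earlier results of these data known. Named genes are the 10 members, Usp28, 3 pluripotency markers, the 3 genes of smallest p in each list and the 5 closest to Myc; Pcgf6, L3mbtl2, E2f6 and the promoter examples were added for their known roles or their printed site. On simulated counts edgeR recovered 26%, 76%, 100% and 100% of 50 genes changed 1.5-, 2-, 3- and 4-fold, with 10 false calls among 15066 genes. The changed genes were drawn from those averaging at least 5 CPM, and no replicate or GC effect was simulated. These shares therefore do not give the power of the real fit.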

Additional observations from a re-analysis of the deposited data

How the results depend on the processing

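By edgeR 0 genes were higher and 0 lower; the counts were 81 and 49 by DESeq2, 24 and 5 with library totals, 18 and 3 with upper-quartile scaling, 204 and 118 with no filter, and 49 to 146 and 31 to 200 with a library left out. With the replicate number as a block they were 965 and 716, and 853 and 1425 with GC correction as well. In the blocked fit, beside 965 higher and 716 lower of all 15341 tested genes, 6 of 19 germline genes passed, all higher. So did 2 of 28 MYC targets and 1 of 13 coactivators, lower, and 1 of 3 MLX branch genes, higher. Of 8 pluripotency markers 3 passed, 2 of them higher. Same-numbered libraries deviated together (correlation 0.517 across genes), but the labels do not say that numbers mark a shared batch. Members called went from 0 to 1 by DESeq2, with no filter and with the block, to 2 with the block and GC correction (Myc, and Mnt at -0.28), and to 0 or 1 with a library left out. Myc passed at -1.69 by DESeq2, -1.68 with no filter, -1.72 with the block and -1.81 with the block and GC correction. It ran from -2.23 to -1.29 with a library left out, where the lone library is assumed to vary like the other group, and its adjusted p over all 14 alternatives ran from 7.67e-11 to 0.280. The cause was not tested. Mycn kept its side of the threshold, at -0.20 to -0.0091. Signs reversed with a library left out for Mycl (-0.16 to 0.014), Max (-0.41 to 0.078), Mnt (-0.49 to 0.34; also 0.045 with library totals and 0.043 with upper-quartile scaling), Mxd4 (-0.85 to 0.11) and the summed MYC paralogs (-25.01 to 5.87 TPM). The log2 ratio of Mycn to Myc differed by 1.28 to 2.10. Mga, Mxd1, Mxd3 and Mxi1 kept their sign in all 14. The simulated recovery does not describe the power of the real fit, in which no gene passed.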
